A study of Mus musculus with 18 samples.

Results

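The genes described here are 32 named genes of glycolysis and of the response to low oxygen, taken by symbol from the 19862 genes of a single expression table, and all 32 had a row in it. They comprise 14 glycolytic enzymes, 7 genes of glucose and lactate transport, the lactate step and its regulation, 4 genes of oxygen sensing, and 7 targets of hypoxia signalling. The libraries come from a mouse osteosarcoma (bone tumour) cell culture with floxed Prmt1 alleles. Prmt1 encodes the main enzyme that places asymmetric dimethyl marks on arginine in mammalian cells, and the study asks how its loss changes messages and their loading with ribosomes.

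Knockout cells (Prmt1-/-) were floxed cells that stably express CreER, a Cre recombinase switched on by tamoxifen, and that received 4-hydroxytamoxifen (4OHT). Control cells were the same floxed CreER cells given the ethanol vehicle, and the labels call their genotype wild type. Both kinds of cell share the origin of the line, tumours of mice with conditional deletion of p53 and Rb on a mixed background, with an age of postnatal day 299 in the labels. From each, RNA was taken as cleared cytoplasmic lysate (Total), as pooled sucrose gradient fractions with fewer than 3 ribosomes per message (Light), and as pooled fractions with more than 3 (Heavy). Each of the 6 groups has 3 libraries. Floxed cells without CreER and CreER cells without floxed alleles, given 4OHT, were not analysed here, so the drug and Cre cannot be told apart from the deletion. No label says that the libraries of a group are separate cultures, so a p-value here covers no more than the spread among these libraries, which may be technical.

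Glycolysis splits glucose into pyruvate through a chain of cytoplasmic enzymes, and lactate dehydrogenase turns pyruvate into lactate, which leaves the cell through monocarboxylate transporters. When oxygen is low, prolyl hydroxylases of the Egln family no longer mark the transcription factor subunit Hif1a for capture by Vhl, and the stabilised factor raises the transcription of many glycolytic genes and of angiogenic and mitophagy genes. Tumour cells, osteosarcoma among them, often use glycolysis heavily even with oxygen present. Nothing in the labels describes a change of oxygen in these cultures.

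Values are CPM (reads of a gene per 1000000 reads of its library), a share of the library, so a message that is higher in Heavy RNA takes up more of that RNA, and no rate of translation was measured. In such bulk samples, fewer cells with a message and less message per cell cannot be told apart. The libraries hold 32.3 to 57.9 M reads (M, 1000000), and each group rests on 3 libraries. Prmt1 itself had 147, 176 and 173 CPM in Total knockout RNA, against 256, 277 and 285 CPM in Total control RNA (log2 -0.72, SE 0.21; limma adjusted p = 0.0202). Heavy libraries had 64.4, 121 and 145 CPM in knockout and 412, 378 and 370.1 CPM in control cells (log2 -1.88; adjusted p = 7.87e-06). In Light RNA the Prmt1 groups overlapped, with 166, 229 and 235 CPM in knockout and 255, 243 and 218 CPM in control libraries (log2 change -0.20, SE 0.21, limma adjusted p = 0.506). The knockout library numbered 1 was the highest of the 3 knockout libraries for 15 of the 32 genes in Total, 22 in Light and 22 in Heavy RNA, against 47.6%, 45.4% and 41.0% of the 9651 genes that averaged 5 CPM or more. Aldoc and Ankrd37, which averaged under 5 CPM, are among the 32 but not among the 9651. The osteoblast genes Runx2, Col1a1 and Col1a2 averaged 55.8, 2030 and 1809 CPM over the 18 libraries, while the mature osteoblast markers Ibsp, Bglap and Dmp1 were under 0.2 CPM. The 11 osteoblast markers summed to 3129 to 4859 CPM in Light knockout and 1653 to 2108 CPM in Light control libraries. Col1a1 and Col1a2 make up most of this sum, so it says little of the other markers. Markers of other cell types summed to less. The 11 endothelial markers summed to 15.7 to 17.8 CPM in Light knockout and 10.8 to 15.3 CPM in Light control libraries. The 6 erythroid markers with a row summed to 1.17 to 1.68 CPM in Light knockout and 0.204 to 0.233 CPM in Light control libraries. For the 7 muscle markers the sums were 1.64 to 2.60 CPM in Light knockout and 0.362 to 0.587 CPM in Light control libraries. In Light RNA the 7 macrophage markers with a row summed to 17.0 to 23.0 CPM in knockout and 8.44 to 9.27 CPM in control libraries, and the 8 epithelial markers to 15.0 to 15.8 CPM in knockout and 3.85 to 5.33 CPM in control libraries. Over the 18 libraries Ptprc, Itgam and Epcam each averaged under 0.03 CPM. Other markers of the same lists were higher, with means of 6.28 CPM for Csf1r, 4.34 for Cd14 and 2.16 for Cd68. Among the epithelial ones, Krt19 averaged 8.07 and Krt14 3.11 CPM. Among the endothelial ones, Egfl7 averaged 9.21 and Flt1 1.31 CPM. The part of these markers in the results was not tested.

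Per kilobase of exon in Total control RNA, Gapdh and Eno1 had the highest means of the 32 messages. Aldoa and the 7 above it each averaged more than 300 CPM per kb. Without division by length, Eno1 (2305 CPM) and Pkm (2228 CPM) stood above Gapdh (1762 CPM) in that RNA. Per kilobase, Gapdh, which oxidises glyceraldehyde phosphate, stood at 952 ± 85.3 CPM per kb and the enolase Eno1 at 798 ± 80.1 (SD, n = 3). These values lie within about 2 SDs of each other. The mutase Pgam1, the kinase Pgk1, the pyruvate kinase Pkm, the lactate dehydrogenase Ldha and the isomerase Tpi1 followed with means of 663 to 527 CPM per kb. Hexokinases were far lower, with 9.10 ± 1.18 for Hk1 and 7.92 ± 0.461 for Hk2. Of the hypoxia targets, the hormone gene Adm was lowest, at 1.79 ± 0.125 CPM per kb, and the brain-type aldolase Aldoc, the lowest of all 32, stayed at or under 0.465 CPM in every library. All 32 genes passed the filter of a value above 0 in at least 3 libraries.

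Knockout cells showed more of these messages than control cells, most widely in Light RNA. In Total RNA 9 of the 32 genes rose and 2 fell by limma (Benjamini-Hochberg adjusted p under 0.05 over 17515 genes), against 26.4% of all genes tested (16.1% higher and 10.3% lower). In Light RNA 23 rose and 2 fell, against 39.5% of all genes (26.8% higher and 12.7% lower). In Heavy RNA 12 rose and 2 fell, against 28.9% of all genes (18.5% higher and 10.4% lower). The median log2 change of the 32 genes was 0.15 in Total, 0.69 in Light and 0.32 in Heavy RNA, beside 0.01, 0.05 and 0.02 for all genes tested. For the 11602 genes that averaged 1 CPM or more, the medians were -0.01, 0.14 and 0.05. The same 8 genes (Hk1, Pfkl, Slc2a1, Slc16a3, Adm, Egln3, Ndrg1 and Vegfa) rose in all 3 fractions, and 10.7% of all genes did. A further 9, mostly enzymes of the lower pathway, were called higher in Light RNA and not called in Total or Heavy RNA, as were 8.91% of all genes. For 4 genes the calls were higher in Light and Heavy RNA with none in Total RNA (4.51% of all genes), and 6 were called in no fraction (49.1% of all genes). A missing call does not show that a message was unchanged in that fraction. Same-numbered Heavy and Light libraries deviate together, so these counts are not independent of each other.

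**Figure D1:**
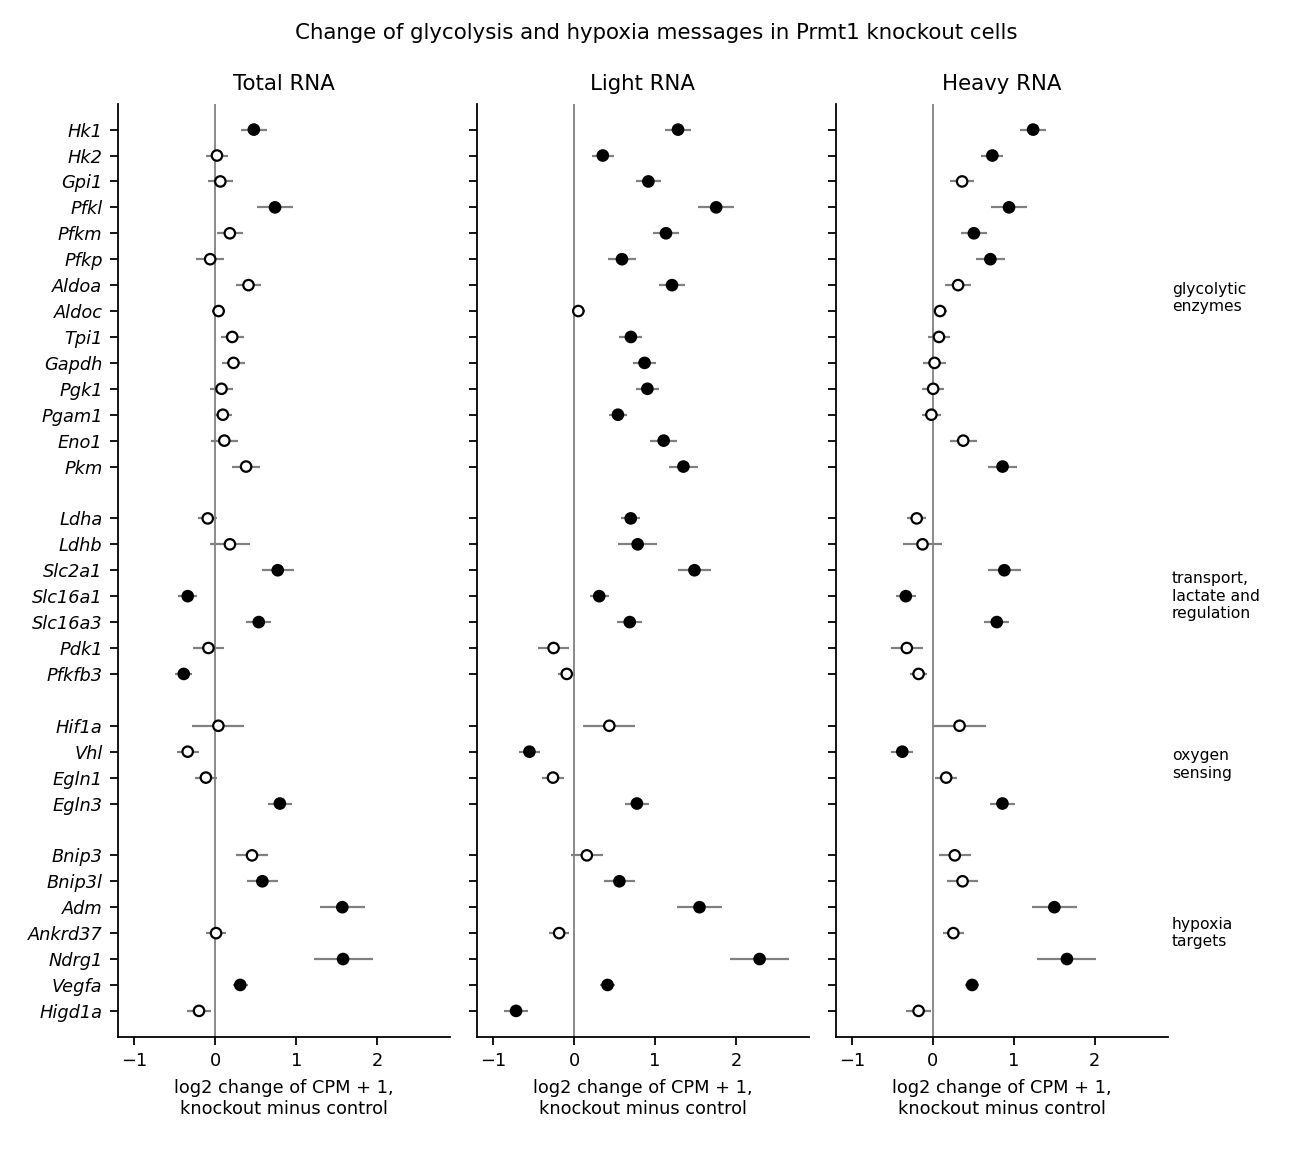
Log2 change of CPM + 1, knockout minus control, of the 32 genes in Total, Light and Heavy RNA, grouped by role; bars are the standard error of the fit, and filled points have a limma adjusted p under 0.05. In Light RNA 13 of the 14 glycolytic enzymes are filled and right of 0, while in Total RNA only Hk1 and Pfkl are.

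Libraries of the 2 kinds of cell did not overlap for 19 of the 32 genes in Total RNA (14 higher and 5 lower in knockout cells), against 54% of the genes that averaged 5 CPM or more. In Light RNA they did not overlap for 24 genes (22 higher, 2 lower), against 63.8%, and in Heavy RNA for 18 genes (16 higher, 2 lower), against 46.2%. The higher and lower shares of all such genes were 25.1% and 28.8% in Total, 39.9% and 23.9% in Light, and 25.7% and 20.4% in Heavy RNA. Aldoc and Ankrd37 averaged under 5 CPM, so they are among the 32 genes but outside these shares.

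The libraries were also scaled by the median of ratios. By the mean scaling factors of the libraries, this shifts knockout minus control by -0.05 (log2) in Total, -0.23 in Light and -0.17 in Heavy RNA. That shift is the one before the pseudocount is added, and genes of low CPM move less. The counts became 7 higher and 3 lower in Total, 16 higher and 6 lower in Light, and 11 higher and 5 lower in Heavy RNA. No gene called in a fraction changed its direction there. The Total count was 6 without control library 1, 6 without control library 2 and 7 without knockout library 3, and the Heavy count was 8 when the 6 Heavy libraries were fitted alone.

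Of the hypoxia targets and oxygen sensors, Ndrg1, Adm, Egln3 and Vegfa rose in all 3 fractions. Ndrg1 (gene 17988, chr15:66929318-66969640 on the minus strand of mm10), a stress-responsive protein of the cytoplasm widely used as a marker of hypoxia, had 202, 93.6 and 113 CPM in Total knockout libraries, against 40.5, 43.7 and 43.4 CPM in Total control libraries. In Light RNA it had 201.3, 83.1 and 104.8 CPM in knockout and 25.6, 23.8 and 22.3 CPM in control libraries, and in Heavy RNA 427, 148 and 152 CPM in knockout and 63.2, 68.4 and 69.0 CPM in control libraries. Every knockout library stood above every control library in each fraction, and knockout library 1 was the highest of the knockout libraries in each. The ratio of means was 3.20 in Total, 5.43 in Light and 3.63 in Heavy RNA, with log2 changes of 1.58, 2.29 and 1.66 (SE 0.36; limma adjusted p = 0.00408, 0.00012 and 0.00251). The Ndrg1 call was kept without the 3 knockout libraries numbered 1, with log2 changes of 1.26, 1.92 and 1.16.

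Adm (gene 11535, chr7:110627661-110629820 on the plus strand), the precursor of the vasodilator peptide adrenomedullin, had 12.8, 7.69 and 8.17 CPM in Total knockout libraries and 2.37, 2.69 and 2.41 CPM in Total control libraries. Its Light values were 18.1, 7.88 and 9.57 CPM in knockout and 3.28, 3.15 and 3.03 CPM in control libraries, and its Heavy values 22.4, 10.7 and 9.77 CPM in knockout and 4.09, 4.20 and 3.89 CPM in control libraries. The groups did not overlap in any fraction, library 1 was again the highest of the knockout libraries, and the log2 changes of 1.57, 1.55 and 1.50 (SE 0.28; limma adjusted p = 0.00052, 0.000373 and 0.000674) were called in every fraction. Without the knockout libraries numbered 1 they were 1.36, 1.22 and 1.15, still called.

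Egln3 (gene 112407, chr12:54178981-54203860 on the minus strand), an oxygen-dependent prolyl hydroxylase that is itself a target of the hypoxia factor, had 13.7, 11.5 and 9.34 CPM in Total knockout libraries, against 6.17, 6.37 and 5.86 CPM in Total control libraries. Its ratio of means was 1.88 in Total, 1.80 in Light and 1.98 in Heavy RNA (log2 0.80, 0.78 and 0.86, SE 0.15; limma adjusted p = 0.000855, 0.000689 and 0.000403). In Heavy RNA knockout library 1 was here the lowest of the 3 knockout libraries, at 9.22, 11.1 and 13.5 CPM in knockout libraries 1 to 3, against 5.30, 6.13 and 5.66 CPM in control libraries. Vegfa, the main angiogenic growth factor, rose less, with 134, 137 and 148 CPM in Heavy knockout libraries and 96.6, 94.6 and 108 CPM in Heavy control libraries. Its log2 changes were 0.31, 0.41 and 0.49 (SE 0.09; limma adjusted p = 0.0179, 0.00168 and 0.00063). In Total RNA its call ended without control library 2 (adjusted p = 0.0888), knockout library 2 (0.0605) or knockout library 3 (0.057), and median-of-ratios scaling ended it in Total (0.0606) and in Light RNA (0.132).

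**Figure D2:**
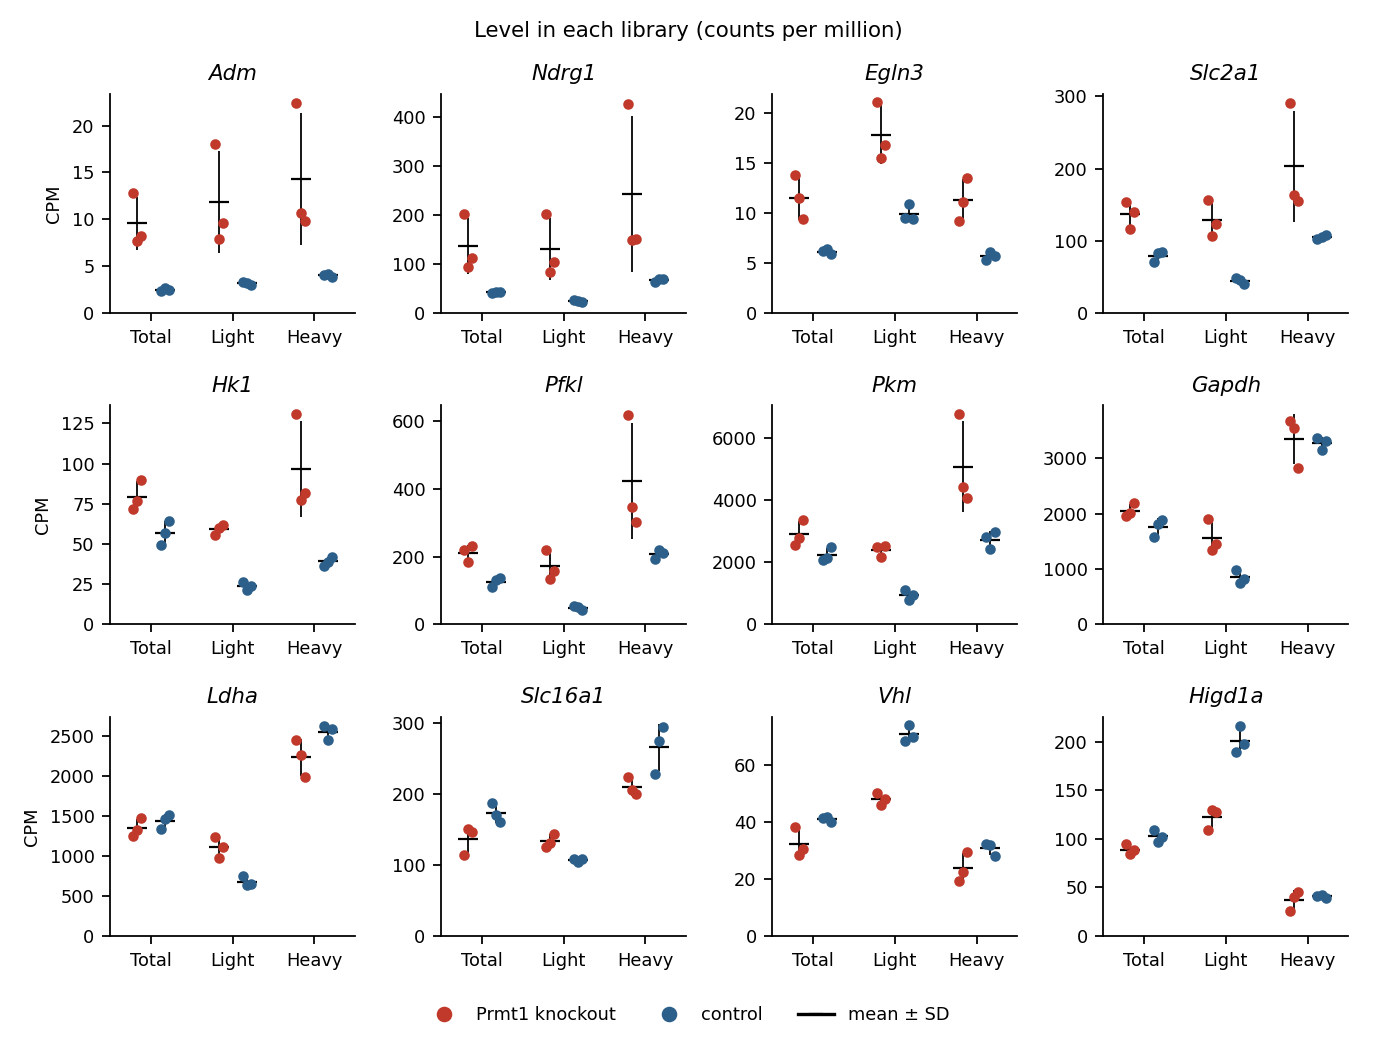
CPM in each library for 12 of the genes, with knockout libraries (red) left of control libraries (blue) in each fraction and the mean ± SD of the 3 libraries as black marks; each vertical axis starts at 0. Adm, Ndrg1, Egln3, Slc2a1, Hk1 and Pfkl are above control in all 3 fractions, whereas Gapdh and Ldha separate upward in Light RNA and Gapdh overlaps in Heavy RNA.

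The mitophagy receptors Bnip3 and Bnip3l had smaller log2 changes than Ndrg1 and Adm. Bnip3l rose in Total RNA, with 175, 144 and 129 CPM in knockout and 119, 94.8 and 84.6 CPM in control libraries (log2 0.58, SE 0.19; limma adjusted p = 0.0351), and in Light RNA (log2 0.56, adjusted p = 0.0301). In Total RNA this call ended without control library 2 (adjusted p = 0.0963), control library 3 (0.137), knockout library 1 (0.148) or knockout library 2 (0.0674), and the Light call without control library 1 (0.0902), control library 2 (0.109) or knockout library 1 (0.182). Over all alternatives the Light call was lost in 6 of 18. Bnip3 had 107, 64.9 and 79.2 CPM in Total knockout and 65.6, 63.0 and 51.3 CPM in Total control libraries, which overlap, and was not called in any fraction (log2 0.45, SE 0.20; limma adjusted p = 0.104 in Total), though 3 of 18 alternatives called it higher in Total RNA. In Heavy RNA its knockout libraries (49.2, 48.8 and 78.0 CPM) all stood above its control libraries (46.9, 48.6 and 46.1 CPM). Ankrd37, an ankyrin repeat gene induced by hypoxia, was not called either, with log2 changes of 0.01 in Total, -0.18 in Light and 0.25 in Heavy RNA. Its Heavy groups were only just apart, with a lowest knockout value of 2.498 CPM and a highest control value of 2.492 CPM. The Ankrd37 gene overlaps Ufsp2 and Lrp2bp.

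Promoter windows of all the listed genes that have one were searched for the letters of the hypoxia response element, whose core is ACGTG or GCGTG. Windows run from 250 bases before to 50 after a gene's start, are from RefSeq on build GRCm38.p6 and are printed 5′ to 3′ on the gene's strand, with capitals for each ACGTG or GCGTG on either strand (CACGT or CACGC on the opposite one). Of the windows printed here, Adm, Egln3, Slc2a1 and Slc16a3 rose in every fraction. Ldha is a well known target that rose in Light RNA and was not called in the others. Vhl, which fell in Light RNA, holds no match. Of those not printed, Higd1a also fell in Light RNA and holds 3 matches, while Tpi1 and Gpi1 rose there and hold none.
Adm (chr7:110627407-110627706, plus strand): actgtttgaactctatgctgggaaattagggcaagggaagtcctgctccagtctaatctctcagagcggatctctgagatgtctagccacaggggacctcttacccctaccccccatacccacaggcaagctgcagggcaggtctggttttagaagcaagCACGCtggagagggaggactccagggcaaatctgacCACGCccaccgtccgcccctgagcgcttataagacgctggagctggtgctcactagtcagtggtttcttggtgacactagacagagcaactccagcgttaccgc
Egln3 (chr12:54203825-54204124, minus strand): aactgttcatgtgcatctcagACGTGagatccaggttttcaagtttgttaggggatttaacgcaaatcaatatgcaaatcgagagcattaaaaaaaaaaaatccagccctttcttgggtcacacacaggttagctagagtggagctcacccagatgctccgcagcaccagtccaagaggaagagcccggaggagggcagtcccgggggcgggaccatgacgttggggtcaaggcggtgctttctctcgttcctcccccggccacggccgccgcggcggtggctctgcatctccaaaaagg
Slc2a1 (chr4:119108495-119108794, plus strand): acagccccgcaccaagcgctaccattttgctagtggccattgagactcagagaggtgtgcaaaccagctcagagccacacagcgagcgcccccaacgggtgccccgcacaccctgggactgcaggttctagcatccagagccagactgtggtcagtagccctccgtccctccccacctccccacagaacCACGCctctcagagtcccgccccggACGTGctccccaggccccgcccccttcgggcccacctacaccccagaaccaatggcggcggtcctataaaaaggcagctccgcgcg
Slc16a3 (chr11:120948817-120949116, plus strand): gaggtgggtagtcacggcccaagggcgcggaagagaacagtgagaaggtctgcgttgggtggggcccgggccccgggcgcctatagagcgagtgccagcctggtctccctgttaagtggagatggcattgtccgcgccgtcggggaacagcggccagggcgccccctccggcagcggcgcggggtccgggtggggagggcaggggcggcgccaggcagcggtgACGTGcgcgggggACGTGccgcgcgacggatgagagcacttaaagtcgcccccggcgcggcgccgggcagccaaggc
Ldha (chr7:46845554-46845853, plus strand): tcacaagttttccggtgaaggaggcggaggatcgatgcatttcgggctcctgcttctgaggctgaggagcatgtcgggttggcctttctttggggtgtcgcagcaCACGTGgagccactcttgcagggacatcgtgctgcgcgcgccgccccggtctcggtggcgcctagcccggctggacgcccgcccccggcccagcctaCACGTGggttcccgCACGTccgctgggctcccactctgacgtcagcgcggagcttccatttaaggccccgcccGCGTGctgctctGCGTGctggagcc
Vhl (chr6:113623744-113624043, plus strand): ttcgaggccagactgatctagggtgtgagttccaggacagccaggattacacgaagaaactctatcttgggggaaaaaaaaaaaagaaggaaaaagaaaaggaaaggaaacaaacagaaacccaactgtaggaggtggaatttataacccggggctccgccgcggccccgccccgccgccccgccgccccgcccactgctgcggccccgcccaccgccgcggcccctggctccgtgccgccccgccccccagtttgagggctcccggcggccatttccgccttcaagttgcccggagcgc

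Of the 32 genes, 30 had at least 1 such window, Bnip3l and Ndrg1 being those without. At least 1 match stood in a window of 27 of the 30 genes (90.0%), against 46.7% of the 27025 genes with a window and 71.2% of the 7751 that averaged 5 CPM or more. A gene with several windows counted if any of them matched, so it had more chances. By window, 35 of the 44 windows of these genes (79.5%) held a match, against 43.8% of all 32851 windows. The genes without a match were Vhl, Tpi1 and Gpi1. By call in Light RNA, 19 of 21 genes that rose held a match, as did 7 of 7 that were not called and 1 of 2 that fell. The palindrome CACGTG, which contains ACGTG, stood in 6 of the 30 genes (20.0%) and in 8.09% of all genes with a window. Neither this share nor the share by window was computed for the genes that averaged 5 CPM or more. These are matches of letters and say nothing of binding in these cells.

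Of the 7 genes of transport and the lactate step, 2 rose and 2 fell in Total RNA, 5 rose in Light RNA, and 2 rose and 1 fell in Heavy RNA, with Slc2a1 and Slc16a3 higher in each. Slc2a1 (gene 20525, chr4:119108711-119137983 on the plus strand), the basal glucose transporter, had 154, 116 and 140.2 CPM in Total knockout libraries, against 70.0, 83.3 and 85.0 CPM in Total control libraries. It reached 156, 106 and 123 CPM in Light knockout against 48.5, 46.3 and 39.6 CPM in Light control libraries, and 291, 163 and 154 CPM in Heavy knockout against 102, 105 and 108 CPM in Heavy control libraries. All knockout libraries were above all control libraries, by 1.72 times in Total, 2.87 times in Light and 1.93 times in Heavy RNA (log2 0.77, 1.49 and 0.88, SE 0.20; limma adjusted p = 0.0089, 2.61e-05 and 0.00317). The lactate exporter Slc16a3 rose at a low level, with 26.9, 18.3 and 21.7 CPM in Heavy knockout and 13.8, 10.5 and 12.9 CPM in Heavy control libraries (log2 0.79, SE 0.15; limma adjusted p = 0.00094). Its changes in Total and Light RNA were 0.54 and 0.69 (adjusted p = 0.0157 and 0.00203). In Total RNA its call ended without control library 1 (adjusted p = 0.0579), control library 2 (0.0613) or knockout library 3 (0.0838). Quantile normalization ended it in Total (0.0717) and Light RNA (0.0601), and removal of the coding-length trend in Light RNA (0.0939).

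Slc16a1, the more abundant monocarboxylate transporter, was called in opposite directions in different fractions. In Total RNA it fell to 114, 149.9 and 147 CPM in knockout libraries, against 188, 169.8 and 160.4 CPM in control libraries (log2 -0.34, SE 0.12; limma adjusted p = 0.0453), and in Heavy RNA to 224, 205 and 199 CPM against 228, 274 and 293 CPM (-0.33; adjusted p = 0.0469). In Light RNA it had 125, 131 and 144 CPM in knockout and 108, 105 and 109 CPM in control libraries (0.31; adjusted p = 0.0488). The groups did not overlap in any fraction, but all of these p-values lie near the threshold. The Light call was lost when any 1 of its 6 libraries was left out (adjusted p = 0.0535 to 0.154), and over all alternatives in 14 of 18, with an adjusted p of up to 0.625 after median-of-ratios scaling (log2 0.09). The Total call was lost without control library 1, 2 or 3 (0.163, 0.091 and 0.0526) or knockout library 1 (0.227), and the Heavy call without Heavy control library 2 or 3 (0.133 and 0.186) or knockout library 2 or 3 (0.104 and 0.104). The test of the difference between Heavy and Light changes gave -0.64 (SE 0.17; limma adjusted p = 0.0524).

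At the entry of glycolysis, Hk1 and Pfkl rose in every fraction. Hk1, the housekeeping hexokinase that phosphorylates glucose, had 55.6, 60.2 and 62.1 CPM in Light knockout and 26.2, 21.5 and 23.7 CPM in Light control libraries. In Heavy RNA it had 131, 77.6 and 81.4 CPM in knockout and 36.6, 39.0 and 42.2 CPM in control libraries, and in Total RNA 71.5, 76.8 and 90.0 CPM in knockout and 49.4, 57.1 and 64.2 CPM in control libraries. The ratio of means was 1.40 in Total, 2.49 in Light and 2.46 in Heavy RNA, with no overlap between the cells in any of them (log2 0.48, 1.28 and 1.24, SE 0.16; limma adjusted p = 0.0422, 1.64e-05 and 3.33e-05). The Total call of Hk1 was lost without control library 1 (adjusted p = 0.163), control library 2 (0.0896), knockout library 2 (0.076) or knockout library 3 (0.154).

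Pfkl, the liver-type subunit of phosphofructokinase, which makes the committed step of glycolysis, had 220.4, 135 and 159 CPM in Light knockout and 54.2, 50.2 and 43.3 CPM in Light control libraries. This was the largest change of any glycolytic enzyme in Light RNA, 3.48 times by the means. Its log2 changes were 0.74 in Total, 1.75 in Light and 0.94 in Heavy RNA (SE 0.22; limma adjusted p = 0.0202, 1.34e-05 and 0.00398). In Total RNA the Pfkl call ended without control library 1 (adjusted p = 0.0822), knockout library 1 (0.0614) or knockout library 3 (0.0693).

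The make-up of both enzyme families differed between the cells. Hk2, the hexokinase induced by hypoxia and in many tumours, rose in Heavy RNA, with 60.9, 49.8 and 54.8 CPM in knockout and 30.6, 31.5 and 36.1 CPM in control libraries (log2 0.74, SE 0.14; limma adjusted p = 0.000687). Its Light change of 0.36 was called only just (adjusted p = 0.0497), with groups that overlap, and was lost without control library 2 (0.23), control library 3 (0.0859), knockout library 2 (0.102) or knockout library 3 (0.171). It was lost in 12 of 18 alternatives in all, with a log2 change of 0.14 after median-of-ratios scaling (adjusted p = 0.508) and an adjusted p of 0.998 with the coding-length trend removed. Per kilobase of exon, Hk1 made up 61.2% ± 1.96 of the Hk1 and Hk2 messages in Total knockout and 53.4% ± 2.60 in Total control libraries (SD, n = 3). The Hk1 share was 62.8% ± 1.43 in Light knockout and 46.6% ± 1.56 in Light control libraries, and 61.9% ± 4.65 in Heavy knockout and 53.4% ± 0.725 in Heavy control libraries. The share was higher in each knockout library than in any control library of its fraction.

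Pfkm and Pfkp, the muscle-type and platelet-type phosphofructokinases, rose in Light RNA (log2 1.14 and 0.59; limma adjusted p = 4.39e-05 and 0.0133) and in Heavy RNA (0.51 and 0.71; 0.0261 and 0.00572). The Heavy call of Pfkm was lost without control library 1 (adjusted p = 0.0752), control library 2 (0.0724) or knockout library 1 (0.118), and the Light call of Pfkp without knockout library 1 (0.0567). Over all alternatives the Heavy Pfkm call was lost in 8 of 18 (adjusted p up to 0.147). The Light Pfkp call was lost in 5, among them quantile normalization (0.152) and removal of the coding-length trend (0.216), and the Heavy Pfkp call in 1, the Heavy libraries fitted alone (0.113). Pfkl made up 63.5% ± 1.93 of the 3 phosphofructokinase messages per kilobase in Total knockout and 53.2% ± 1.87 in Total control libraries, and 64.1% ± 2.36 in Light knockout and 52.2% ± 2.46 in Light control libraries. In Heavy RNA the Pfkl share was 71.4% ± 1.81 in knockout and 65.5% ± 1.50 in control libraries. Slc16a3 made up 6.67% ± 1.04 of the Slc16a1 and Slc16a3 messages in Total knockout and 3.59% ± 0.683 in Total control libraries, 7.21% ± 1.14 in Light knockout and 5.32% ± 0.294 in Light control libraries, and 9.11% ± 1.24 in Heavy knockout and 4.30% ± 0.988 in Heavy control libraries. Ldha, by contrast, made up 92.9% ± 2.50 of the Ldha and Ldhb messages in Light knockout and 93.6% ± 0.662 in Light control libraries, with groups that overlap. These shares are descriptions with no test.

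**Figure D3:**
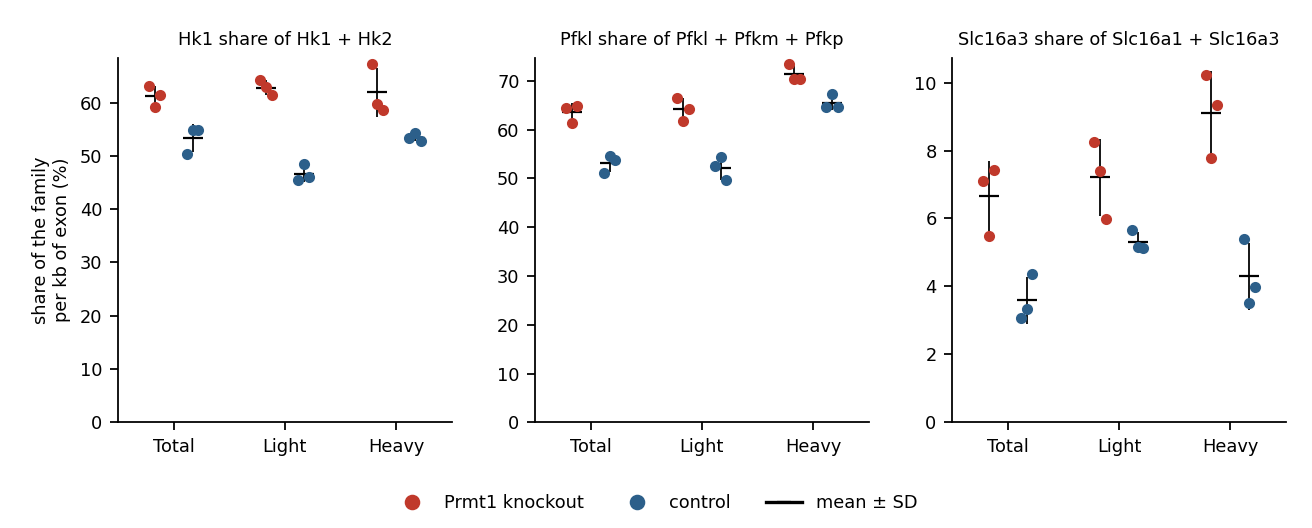
Share (%) of Hk1, Pfkl and Slc16a3 in the messages of their family, per kilobase of exon, in each knockout library (red) and control library (blue) of the 3 fractions, with mean ± SD in black; each axis starts at 0. In every fraction the knockout libraries lie above the control libraries for all 3 shares.

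Gapdh, Pgk1, Aldoa, Eno1, Ldha, Tpi1 and Pgam1, all abundant, rose in Light RNA and were not called in Total or Heavy RNA, while Pkm was called in Light and Heavy RNA. In Total RNA the knockout libraries of Aldoa, Gapdh, Tpi1 and Pgam1 still stood above all control libraries, whereas Pgk1, Eno1 and Ldha overlapped. Aldoa stood above control in Heavy RNA too. Its Total change was 0.41 (limma adjusted p = 0.066), and 4 of 18 alternatives called it. Gapdh had 1898, 1349.7 and 1451 CPM in Light knockout and 989, 754 and 814 CPM in Light control libraries. Pgk1, the phosphoglycerate kinase that yields ATP, had 1073, 792 and 913 CPM in Light knockout and 512, 453 and 508 CPM in Light control libraries. Neither gene's groups overlapped, with log2 changes of 0.87 and 0.91 (SE 0.14 each; limma adjusted p = 0.000157 and 9.27e-05). In Heavy RNA both overlapped, Gapdh with 3676, 3537 and 2821 CPM in knockout and 3365, 3142 and 3313 CPM in control libraries, and their log2 changes were 0.02 and 0.01.

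Aldoa, the main aldolase, had 1133, 739.8 and 865 CPM in Light knockout and 435, 372 and 361 CPM in Light control libraries (log2 1.21, SE 0.16; limma adjusted p = 1.88e-05). Eno1, the enolase, had 2371, 1832 and 2219.7 CPM in Light knockout and 1138, 899.9 and 941 CPM in Light control libraries (log2 1.11, SE 0.16; limma adjusted p = 6.36e-05). Both were above every control library. Ldha, which makes lactate, had 1239, 976 and 1109 CPM in Light knockout and 747, 642 and 651 CPM in Light control libraries (log2 0.70, SE 0.11; limma adjusted p = 0.000156). Its Heavy libraries stood the other way round, with 2446, 2257 and 1985 CPM in knockout and 2619, 2449 and 2579.6 CPM in control libraries, which do not overlap, although the change of -0.20 was not called (adjusted p = 0.224).

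The isomerases Gpi1 and Tpi1, the mutase Pgam1 and the lactate dehydrogenase Ldhb rose by 0.92, 0.70, 0.54 and 0.79 in Light RNA (limma adjusted p = 0.000183, 0.000911, 0.00141 and 0.0177). Ldhb was highest in knockout library 1, with 81.7, 38.3 and 36.4 CPM in Light knockout and 29.0, 29.7 and 24.8 CPM in Light control libraries. Its call was lost without that library (adjusted p = 0.0995) or without control library 3 (0.0639), and in 5 of 18 alternatives in all. Pkm, the pyruvate kinase, rose in Light RNA, with 2499.8, 2159 and 2514 CPM in knockout and 1097, 792 and 940.0 CPM in control libraries, and in Heavy RNA, with 6761, 4413 and 4057 CPM in knockout and 2806, 2427 and 2961 CPM in control libraries. Its groups did not overlap in either fraction, nor in Total RNA (log2 0.38 in Total, not called, 1.35 in Light and 0.86 in Heavy RNA, SE 0.18; limma adjusted p = 0.131, 2.1e-05 and 0.00155).

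Summed over the 14 enzymes, glycolytic messages took 1.28, 0.963 and 1.07% of the reads of the Light knockout libraries, against 0.622, 0.508 and 0.540% of those of the Light control libraries. They took 1.21, 1.23 and 1.40% of reads in Total knockout and 1.02, 1.09 and 1.18% in Total control libraries, and 2.62, 2.07 and 1.86% in Heavy knockout and 1.78, 1.66 and 1.78% in Heavy control libraries. The sums did not overlap in any fraction, and knockout library 1 was the highest in Light and in Heavy RNA. Several of these genes overlap another gene that has a row (Aldoa with Fam57b, Gapdh with Iffo1, Pfkm with Senp1, Tpi1 with Spsb2 and Pfkp with Pitrm1), and no source used here gives the strand setting of the counting, so reads in the overlaps cannot be told apart.

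In oxygen sensing, messages did not move together. Vhl, the ubiquitin ligase subunit that captures the hydroxylated hypoxia factor, fell to 50.1, 45.9 and 48.2 CPM in Light knockout libraries, against 68.5, 74.2 and 69.9 CPM in Light control libraries. The groups did not overlap (log2 -0.55, SE 0.13; limma adjusted p = 0.00391). Its Heavy call (-0.38; adjusted p = 0.0454) was lost without control library 1 (0.127), control library 2 (0.123), knockout library 1 (0.193) or knockout library 2 (0.108) and in 10 of 18 alternatives in all, and in Total RNA it was not called (-0.34; 0.0733). Egln1, the main oxygen sensor among the prolyl hydroxylases, was not called in any fraction (log2 -0.12, -0.26 and 0.17). Hif1a itself was not called, and its Light libraries held 56.6, 25.6 and 25.8 CPM in knockout and 18.1, 25.4 and 31.9 CPM in control cells, with library 1 far above the other knockout libraries (log2 0.44, SE 0.32; limma adjusted p = 0.312). The messages say nothing of the amount of Hif1a protein, which is set mainly by its breakdown.

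Higd1a, a small mitochondrial protein induced by hypoxia, fell in Light RNA, to 109.7, 130.0 and 127 CPM in knockout libraries, against 189.6, 216 and 198 CPM in control libraries (log2 -0.72, SE 0.15; limma adjusted p = 0.00137). In Heavy RNA its groups overlapped, with 25.7, 40.3 and 45.0 CPM in knockout and 41.2, 41.9 and 39.3 CPM in control libraries. Pfkfb3, whose product makes an activator of phosphofructokinase, fell in Total RNA, to 38.3, 47.8 and 47.4 CPM in knockout libraries, against 62.1, 59.2 and 53.9 CPM in control libraries (log2 -0.39, SE 0.10; limma adjusted p = 0.0109), a call lost without control library 1 (0.051) or knockout library 1 (0.0644). Its Light and Heavy changes of -0.09 and -0.17 were not called. Pdk1, the kinase that shuts pyruvate out of mitochondrial oxidation and a classical target of the hypoxia factor, was not called, with log2 changes of -0.08 in Total, -0.25 in Light and -0.32 in Heavy RNA.

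In control cells, the glycolytic messages lay toward the heavy end of the gradient. Heavy RNA held more of 19 of the 32 genes than Light RNA and less of 7, against 50.7% of all genes tested (23.6% higher and 27.1% lower), and 12 of the 14 enzymes were higher. The ratio of Heavy to Light CPM of same-numbered control libraries was 3.40, 4.17 and 4.07 for Gapdh, 3.51, 3.82 and 3.96 for Ldha and 3.57, 4.40 and 4.90 for Pfkl. The hypoxia targets and sensors were more divided. Higd1a (0.217, 0.194 and 0.199), Egln1 (0.385, 0.263 and 0.320), Ankrd37 (0.268, 0.302 and 0.322) and Vhl (0.469, 0.430 and 0.403) were lower in Heavy RNA, as were Bnip3, Egln3 and Pdk1, while Adm, Vegfa, Bnip3l and Hif1a were not called. Hif1a was called higher when same-numbered libraries were blocked (log2 0.59; limma adjusted p = 0.0285, against 0.147 without the block). With the trend of the Heavy to Light ratio on coding length removed, the counts were 19 higher and 3 lower, and Higd1a, with the shortest coding sequence of the 32 at 297 nt, stood at 0.062, against -2.27 before. The Pdk1 call was lost without Heavy control library 1 (adjusted p = 0.0794) or 3 (0.0594) or Light control library 2 (0.0941) or 3 (0.0617).

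In knockout cells the Heavy to Light ratio of many glycolytic messages was lower. For Gapdh it was 1.94, 2.62 and 1.94 in knockout pairs, against 3.40, 4.17 and 4.07 in control pairs. Ldha had 1.98, 2.31 and 1.79 in knockout and 3.51, 3.82 and 3.96 in control pairs, Pgk1 2.03, 2.18 and 1.62 in knockout and 3.70, 3.49 and 3.63 in control pairs, and Aldoa 1.89, 2.27 and 1.69 in knockout and 3.22, 3.77 and 3.89 in control pairs. None of these 4 genes overlapped. Of the 31 genes with reads in every pair, 14 had all knockout ratios below all control ratios and 5 (Hk2, Egln1, Ankrd37, Vegfa and Higd1a) had them above, against 34.9% of the genes that averaged 5 CPM or more (25.7% below and 9.19% above). Ankrd37 averaged under 5 CPM and is outside those shares. By the limma test of the difference between the Heavy and the Light change, 4 genes were called, all lower, against 2.87% of all genes (0.354% higher and 2.52% lower). They were Ldha (-0.90, SE 0.16; adjusted p = 0.0194), Pgk1 (-0.90, 0.20; 0.0274), Gapdh (-0.85, 0.20; 0.0362) and Aldoa (-0.90, 0.22; 0.042). Ldhb was called as well when same-numbered libraries were blocked (-0.91; adjusted p = 0.0249, against 0.192 without the block).

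**Figure D4:**
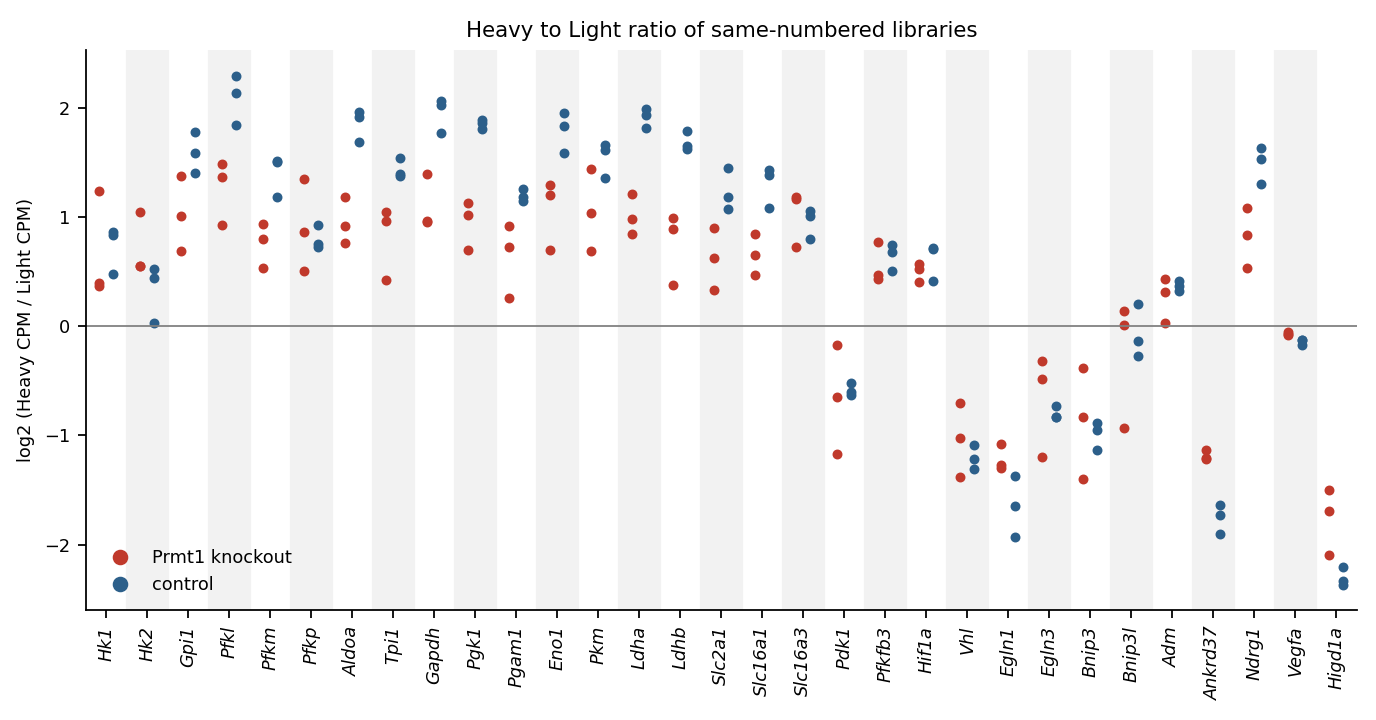
Log2 of the Heavy over Light CPM ratio for each pair of same-numbered libraries, knockout (red) left of control (blue), for the 31 genes with reads in all 6 pairs. From Gpi1 to Ldhb most knockout pairs lie below the control pairs, and Ankrd37 and Higd1a lie above them.

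The 4 calls rest on few libraries. The count was 0 without Heavy control library 1, 2 or 3 or without Light control library 2 or 3, and 1 without Heavy knockout library 2, Heavy knockout library 3 or Light knockout library 1, but 13 (12 lower and 1 higher) without Heavy knockout library 1. It was 16 (15 lower and Higd1a higher) without the 3 knockout libraries numbered 1, 0 after median-of-ratios scaling and 0 with the coding-length trend removed, where the log2 differences of Ldha, Pgk1, Gapdh and Aldoa were -0.71, -0.64, -0.75 and -0.64.

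Whether the Light change exceeded the Total change was tested too. No gene of the 32, and 0% of all genes, passed by limma, although 16 of the 32 had an unadjusted p under 0.05 (15 with a higher Light change), as did 2851 of all genes tested. Fitted on voom weights of the recovered reads, 0 of the 32 genes passed as well. The differences were 1.00 for Eno1, 0.96 for Pfkm, 0.83 for Pgk1 and 0.79 for Ldha (limma adjusted p = 0.0666 each), so a larger change in Light than in Total RNA is not shown for any single gene. The count was 12 when only the 12 libraries of the comparison were fitted and 13 without the knockout libraries numbered 1.

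Coding length moved with the Light changes of all genes. Over all genes that averaged 1 CPM or more and have a coding length, the median Light change was -0.52 for coding sequences of at most 300 nt, -0.37 for 300 to 600 nt, -0.00 for 600 to 1200 nt, 0.24 for 1200 to 1800 nt and 0.39 above 2700 nt. It was 0.32 for 1800 to 2700 nt. The medians of the genes described here lay above these in every range but the shortest, which holds Higd1a alone. They were -0.01 for the 4 of 300 to 600 nt, 0.70 for the 10 of 600 to 1200 nt and 0.91 for the 10 of 1200 to 1800 nt. For the 4 of 1800 to 2700 nt the median was 0.86, and for the 2 above 2700 nt 0.82. In Heavy RNA the medians for 600 to 1200 nt and 1200 to 1800 nt were 0.12 and 0.34, against -0.10 and 0.03 for all genes. With the length trend removed, 20 of the 32 genes were higher and 4 lower in Light RNA, with a median of 0.61. Higd1a was then no longer called lower (adjusted p = 0.11), whereas Vhl, at 543 nt, still was (0.0208).

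**Figure D5:**
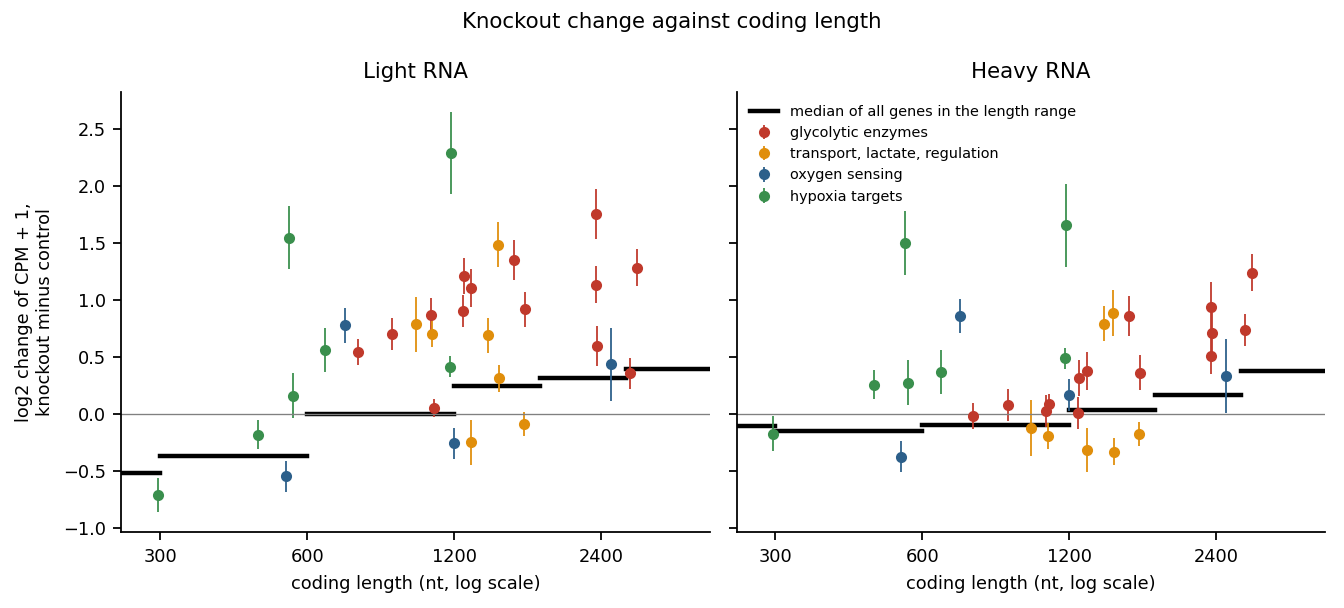
Log2 change of CPM + 1, knockout minus control, against coding length (nt, log scale) in Light and Heavy RNA for the 32 genes, coloured by role with bars for the standard error; black lines are the median of all genes with at least 1 CPM in each length range. In Light RNA the medians climb from -0.52 to 0.39, and most glycolytic enzymes lie above the line of their range.

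Genes of the same pathways outside the 32 changed in both directions. Of 42 other glycolysis genes tested, 10 rose and 5 fell in Total, 14 rose and 7 fell in Light, and 12 rose and 7 fell in Heavy RNA. Of all genes tested, 16.1% rose and 10.3% fell in Total, 26.8% and 12.7% in Light, and 18.5% and 10.4% in Heavy RNA. The median changes of these glycolysis genes were 0.02, 0.14 and 0.02, beside 0.01, 0.05 and 0.02 for all genes. For the 11602 genes that averaged 1 CPM or more, the medians were -0.01, 0.14 and 0.05. The minor transporter Slc2a6 rose by 1.40 in Total and 1.91 in Light RNA (SE 0.18; limma adjusted p = 3.43e-05 and 1.02e-06). Gpd2, the mitochondrial glycerol phosphate dehydrogenase, averaged 31.9 ± 2.60 CPM in Light knockout and 9.88 ± 0.759 CPM in Light control libraries, and Eno3, the muscle enolase, 38.6 ± 3.26 CPM in knockout and 13.8 ± 0.924 CPM in control libraries (SD, n = 3). Among those that fell in Total RNA were the pyruvate dehydrogenase kinase Pdk4 (log2 -0.75), the ADP-dependent glucokinase Adpgk (-0.61), the phosphatase Pgam5 (-0.60) and the pyruvate dehydrogenase subunit Dlat (-0.40), with limma adjusted p = 0.0339, 7.18e-05, 0.00276 and 0.0186. In Light RNA the mitochondrial pyruvate carrier subunit Mpc2 and the bisphosphoglycerate mutase Bpgm fell by 0.55 and 0.49 on the log2 scale (limma adjusted p = 0.0337 and 0.0163).

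Of 57 other hypoxia genes tested, 21 rose and 5 fell in Total, 27 rose and 6 fell in Light, and 24 rose and 4 fell in Heavy RNA, against the same all-gene shares of 16.1% and 10.3%, 26.8% and 12.7%, and 18.5% and 10.4%. Their medians were 0.19, 0.38 and 0.19. Ddit4, a brake on mTOR signalling, averaged 62.2 ± 9.23 CPM in Total knockout and 24.4 ± 2.12 CPM in Total control libraries (log2 1.31, SE 0.14; limma adjusted p = 5.57e-06). Ero1l, the oxidase of disulfide formation in the endoplasmic reticulum, averaged 194 ± 67.6 CPM in Total knockout and 66.3 ± 6.88 CPM in Total control libraries (SD, n = 3). The collagen-modifying enzymes Loxl2 and P4ha2 rose by 1.97 and 1.67 in Light RNA (limma adjusted p = 1.56e-06 and 1.08e-06), and the lipoprotein receptor Vldlr and the transcription repressor Bhlhe41 by 1.70 and 1.32 in Total RNA (0.000959 and 4.95e-05). Edn1, the vasoconstrictor endothelin, went the other way, with 7.80 ± 0.426 CPM in Total knockout and 35.8 ± 6.60 CPM in Total control libraries (log2 -2.05, SE 0.17; limma adjusted p = 3.19e-07). The elongin Tceb1, a partner of Vhl in its ligase, fell by 0.77 in Light RNA on the log2 scale (limma adjusted p = 0.00523).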

How the data were processed

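RNA sequencing libraries (TruSeq v2 kit, NextSeq, per the labels' protocols) gave the authors' deposited table of log2(CPM + 1) values for 19862 genes in 18 libraries. STAR (aligner), the mm10 build and edgeR are named, with no role or version, per the submitters' processing notes. No source used here gives the read counter or its strand setting. With the log2 undone, 100% of values came out as whole reads (tolerance 0.1), and depths were 32.3 to 57.9 M reads. The design named a count test for counts and limma for logged values, and limma was used: version 3.58.1 in R 4.3.3 with trend and robust variances, a mean for each of the 6 groups, all 18 libraries, genes with a value above 0 in 3 libraries or more, Benjamini-Hochberg adjustment over 17515 genes and calls under 0.05. Changes are of log2(CPM + 1), which understates those of low genes. Levels per kilobase and coding lengths use GENCODE M21, figures were drawn with matplotlib 3.10.9, and tables were handled with pandas 2.3.3 and numpy 2.4.6 in Python 3.11.15. The script was tested on simulated data.

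The 32 genes, the other lists, the roles and the tests were chosen with earlier results of these data known. All 32 genes are named; of other lists, the 4 highest and 4 lowest called in Light or Total RNA among genes averaging 5 CPM or more could be named. Same-numbered Heavy and Light libraries deviated together from their group means (correlations of 0.263 to 0.641 in knockout and 0.368 to 0.471 in control cells), so their numbers were taken as pairs. Raw reads were not analysed here.

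Alternatives were quantile and median-of-ratios scaling, other filters and a pseudocount of 0.1, limma without trend, a replicate block, the coding-length trend removed over 50 bins, the libraries of a comparison alone, and each library left out. After seeing the data, voom on the recovered reads, leaving out the 3 knockout libraries numbered 1, and the block with the length trend removed were added.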

Additional observations from a re-analysis of the deposited data

Results flagged for a closer look

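The knockout change of 4 genes differed between Heavy and Light RNA by a test of the difference itself, in limma over all genes. The log2 difference, Heavy change minus Light change, was -0.90 for Aldoa (adjusted p = 0.042), -0.85 for Gapdh (0.0362), -0.90 for Pgk1 (0.0274) and -0.90 for Ldha (0.0194). In that order, the Light changes were 1.21, 0.87, 0.91 and 0.70, all called higher. The Heavy changes were 0.31, 0.02, 0.01 and -0.20, none called. No call was kept under every alternative tried: all 4 were lost after median-of-ratios scaling (adjusted p = 0.099, 0.105, 0.0846 and 0.0713) and with the coding-length trend removed (0.148, 0.114, 0.121 and 0.0809).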

How the results depend on the processing

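Counts of the 32 genes called under the alternatives are given here. In Light RNA (25) and in the control Heavy over Light comparison (26) each alternative stayed within 1.5 times the count, and leaving out a library gave 21 to 24 and 25 to 27. The Total count (11) was 6 to 9 with a library left out, and the Heavy count (14) 11 to 15, but 8 with its libraries fitted alone. For the Heavy over Light difference (4), leaving out a library gave 0 to 13. Median-of-ratios scaling, removal of the coding-length trend and the libraries alone gave 0, the block with the length trend removed 1, and leaving out the knockout libraries numbered 1 gave 16. For the Light over Total difference (0), leaving out a library gave 0, quantile normalization 2, limma without trend or robust variances 6, a mean of at least 1 CPM 7, the libraries alone 12, and leaving out the knockout libraries numbered 1 gave 13. The cause was not tested.

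Calls kept under every alternative run were 4 of 11 in Total (Slc2a1, Adm, Egln3 and Ndrg1), 16 of 25 in Light, 7 of 14 in Heavy, 0 of 4 for the Heavy over Light difference and 19 of 26 in control cells. In the control Heavy over Light comparison, removing the coding-length trend, with or without the block, gave 0.062 for Higd1a (against -2.27) and 0.46 for Bnip3l (against -0.07).

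With the replicate block, 8 genes were called in Total, 23 in Light, 12 in Heavy, 5 for the Heavy over Light difference, 0 for Light over Total and 27 in control cells. Deviations of same-numbered knockout and control libraries of a fraction correlated at -0.487 to 0.602. Those of same-numbered Light and Total libraries correlated at 0.648, 0.562 and 0.461 in knockout cells. In control cells they correlated at -0.681, 0.383 and -0.680. What a shared number stands for was not tested.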

Other observations

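The pentose phosphate pathway, which branches from glycolysis to make NADPH and ribose, was split between its enzymes. Of its 10 genes tested, 3 rose and 3 fell in Total, 5 rose and 3 fell in Light, and 5 rose and 4 fell in Heavy RNA, against 16.1% and 10.3% of all genes in Total, 26.8% and 12.7% in Light, and 18.5% and 10.4% in Heavy RNA. Pgd, which makes NADPH in the oxidative arm, averaged 610.3 ± 49.4 CPM in Light knockout and 171 ± 28.1 CPM in Light control libraries, and 784 ± 123 CPM in Total knockout and 411 ± 40.8 CPM in Total control libraries (SD, n = 3). Tkt and Taldo1, the enzymes that exchange carbon with glycolysis, rose by 1.66 and 1.67 in Light RNA (SE 0.18 and 0.17; limma adjusted p = 2.51e-06 and 1.96e-06) and by 0.83 and 1.03 in Total RNA (0.00223 and 0.00029). G6pdx, the entry enzyme, rose by 1.40 in Light RNA (limma adjusted p = 1.08e-05).

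Pgls, which opens the lactone between G6pdx and Pgd, averaged 65.0 ± 9.86 CPM in Light knockout and 156 ± 14.7 CPM in Light control libraries (log2 -1.26, SE 0.16; limma adjusted p = 1.74e-05). The isomerase Rpia and the synthetase Prps1 fell with it, by 0.80 and 0.43 in Light RNA and by 0.66 and 0.83 in Total RNA on the log2 scale (limma adjusted p = 0.000363, 0.0368, 0.00268 and 0.00081).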
